A study of Homo sapiens with 4 samples.

Results

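Cholesterol synthesis, its control by the sterol regulatory element binding proteins (SREBPs) and the transfer of sterols inside the cell were described through 39 genes in carfilzomib-resistant and wild-type myeloma cells. The genes were the rows of the deposited table whose Ensembl ID mapped to a list of 41 symbols, out of 15201 genes in all. GRAMD1B and GRAMD1C, the other 2 on the list, are not analysed here. The 39 genes were grouped as 7 mevalonate steps, 11 sterol steps, 7 genes of SREBP regulation and 14 genes of uptake and intracellular transfer.

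RNA sequencing covered 2 libraries of ARP-1 cells with resistance to carfilzomib (CfzR) and 2 libraries of wild-type ARP-1 cells (WT). ARP-1 is a human multiple myeloma line, and carfilzomib inhibits the proteasome. The labels give no drug dose, no exposure time, no statement that the drug was present at harvest, and no statement that the resistant cells are a clone or a pool. Levels are read as FPKM, a unit the file does not state, which count fragments for each kilobase of a transcript, with library size divided out. All 7 plasma cell markers on a list of their own were measured, at up to 4601 FPKM (JCHAIN in CfzR) and with 0 of 7 past the threshold used for differences, of which 5 had positive and 2 negative log2 fold changes. SDC1, the CD138 antigen, stood at 271.7 and 213.1 FPKM in CfzR and 204.8 and 189.5 FPKM in WT. For TNFRSF17 (BCMA), a plasma cell surface receptor, the values were 193.9 and 275.1 FPKM in CfzR and 311.6 and 381.6 FPKM in WT. Of 10 markers of other cell types, 0 had a row, and they are not analysed here.

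Cells make cholesterol from acetyl-CoA. The mevalonate steps build isoprenoid units, squalene is formed from them, and the sterol steps close the rings and trim the product to cholesterol. When membranes of the endoplasmic reticulum are low in cholesterol, SCAP carries the SREBPs to the Golgi, where proteases release their active part, and INSIG proteins hold this back when sterols are plentiful. Cholesterol from lipoproteins leaves lysosomes through the NPC proteins, and carriers such as the GRAMD1 (Aster), STARD and OSBP families move it between membranes. Plasma cells make large amounts of secretory membrane.

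CfzR replicate 1 stood apart from the other libraries. Its FPKM summed to 673265, against 877849 in CfzR replicate 2 and 918617 and 955284 in WT. Over 12896 genes its difference from CfzR replicate 2 had a Spearman correlation of 0.466 with transcript length and of -0.350 with GC content. The difference within the WT pair gave 0.146 and 0.0793. The same was seen within the 39 sterol genes, with 0.551 for length and -0.649 for GC content in the CfzR pair, and 0.312 and 0.00506 in the WT pair. These correlations are across genes, which share libraries and are not replicates, and are given as descriptions. The CfzR libraries differed by a median of 0.35 on the log2 scale over the 39 genes, and the WT libraries by 0.17. Over all genes, the Pearson correlation of log2(FPKM + 1) was 0.971 within the CfzR pair and 0.984 within the WT pair. CfzR replicate 2 correlated at 0.977 with WT replicate 1 and 0.975 with WT replicate 2. It was thus closer to both WT libraries than to CfzR replicate 1, which limits every comparison of CfzR with WT. Many genes are given with their value without CfzR replicate 1. Fewer are given with a value from a fit corrected for transcript length and GC content together. A gene printed without these values was not necessarily stable. Genes with log2 fold changes near 0 changed sign easily, and their ranges are given with the alternatives.

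**Figure D1:**
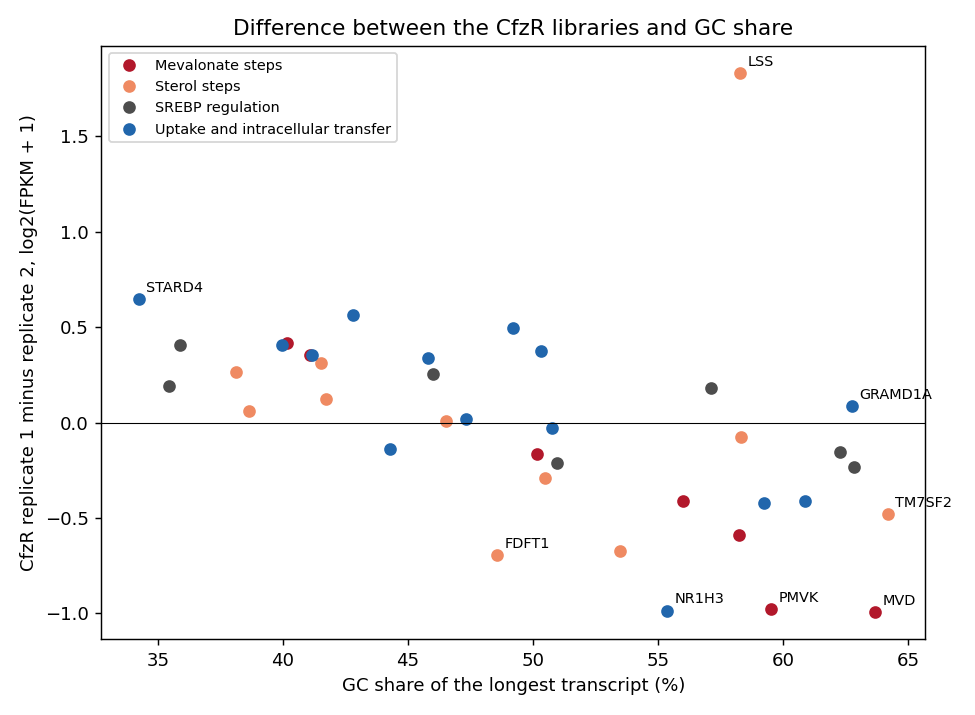
Difference between CfzR replicates 1 and 2 in log2(FPKM + 1) against the GC content of each gene's longest transcript, for the 39 sterol genes. GC-rich genes such as MVD, PMVK and NR1H3 were lower in replicate 1, LSS was higher there, and GRAMD1A, though GC-rich, lay near 0.

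One step of sterol transfer stood apart in the resistant cells. GRAMD1A, also called Aster-A, moves accessible cholesterol from the plasma membrane to the endoplasmic reticulum, and its transcript fell. Of the 39 genes it was the single gene past the threshold of 0.05 on the adjusted p of limma, a linear model fitted to log2(FPKM + 1) over 13411 genes, of which 0.35% passed. No gene of the mevalonate steps, the sterol steps or SREBP regulation passed, and the factors SREBF1 and SREBF2 stood at nearly the same level in both groups.

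GRAMD1A (ENSG00000089351; chromosome 19, 34994784 to 35026471, plus strand, GRCh38) stood at 14.7 and 13.8 FPKM in CfzR replicates 1 and 2, against 43.8 and 43.9 FPKM in WT replicates 1 and 2. Both CfzR libraries were far below both WT libraries, and within each group the values lay close together. The means were 14.2 ± 0.634 FPKM in CfzR and 43.9 ± 0.0640 FPKM in WT (SD, n = 2 each), a level 3.09-fold lower in CfzR. The log2 fold change was -1.56 (SE 0.18, 95% interval -1.996 to -1.13, limma adjusted p = 0.0273). The drop was as large in each CfzR library taken alone, at -1.52 in replicate 1 and -1.60 in replicate 2 relative to the WT mean on the log2 scale. With either CfzR library left out, the limma adjusted p was above 0.05, and in the length and GC corrected fit it was 0.0477. The lowest value, 5.39e-11, came from limma with the replicate number as a block. That fit leaves 1 residual degree of freedom, and same-numbered libraries are not stated to be paired. In bulk RNA, a lower level in every cell and loss of the transcript from part of the cells cannot be told apart. The gene overlaps 2 antisense genes that have no row here, and since the use of strand in counting is not given, its level carries that uncertainty.

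Around GRAMD1A on chromosome 19, no neighbour passed. Of the 10 nearest genes tested, 5 on each side, 0 were past the threshold, and their log2 fold changes ran from -1.78 to 0.56 with a median of -0.32. The 5 neighbours at higher coordinates were all negative, from -1.78 to -0.30, and those at lower coordinates had values of both signs. DMKN and the pseudogene EEF1A1P7 had unadjusted limma p-values of 0.00186 and 0.0446. The most negative, DMKN, which encodes a secreted skin protein, stood at 0.197 and 1.45 FPKM in CfzR and 5.62 and 4.26 FPKM in WT (adjusted p = 0.138).

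Promoter sequences are shown for the gene that passed, for the genes with the most negative values in the sterol and mevalonate groups, for the feedback gene INSIG1, and for SREBF2, the single gene among the 36 with a window that held a sterol regulatory element match. They are RefSeq windows of 300 bases on GRCh38.p14, from 250 bases before to 50 bases after the annotated start, read 5′ to 3′ on the gene's own strand. Capitals mark matches, on both strands, to the element-like motif TCACNCCAC, to CCAAT, which is bound by the SREBP partner NF-Y, and to the palindrome CACGTG, an E-box that SREBPs can also bind. On the opposite strand CCAAT reads ATTGG. Matches to different motifs did not overlap in these windows. The GRAMD1A window lies at chr19:34994477-34994776 on the plus strand.
GRAMD1A: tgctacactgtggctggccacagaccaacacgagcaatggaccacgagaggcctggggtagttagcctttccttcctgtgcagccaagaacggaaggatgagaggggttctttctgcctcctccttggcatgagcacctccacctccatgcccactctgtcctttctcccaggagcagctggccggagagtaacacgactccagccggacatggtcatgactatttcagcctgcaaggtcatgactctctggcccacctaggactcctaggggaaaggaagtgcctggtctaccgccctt
The TM7SF2 window lies at chr11:65111622-65111921 on the plus strand.
TM7SF2: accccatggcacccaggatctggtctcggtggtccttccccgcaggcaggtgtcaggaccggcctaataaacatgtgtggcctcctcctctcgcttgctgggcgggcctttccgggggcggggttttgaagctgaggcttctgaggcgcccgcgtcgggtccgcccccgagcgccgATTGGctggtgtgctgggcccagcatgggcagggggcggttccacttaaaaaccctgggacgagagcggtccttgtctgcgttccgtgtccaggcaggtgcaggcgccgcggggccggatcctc
The MVK window lies at chr12:109573544-109573843 on the plus strand.
MVK: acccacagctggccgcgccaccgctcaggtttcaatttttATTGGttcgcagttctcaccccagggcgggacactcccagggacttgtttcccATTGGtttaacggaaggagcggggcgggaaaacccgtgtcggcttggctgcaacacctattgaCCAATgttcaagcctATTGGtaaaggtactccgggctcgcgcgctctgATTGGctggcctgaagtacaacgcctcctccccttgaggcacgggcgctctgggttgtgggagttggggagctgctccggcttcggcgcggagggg
The INSIG1 window lies at chr7:155297628-155297927 on the plus strand.
INSIG1: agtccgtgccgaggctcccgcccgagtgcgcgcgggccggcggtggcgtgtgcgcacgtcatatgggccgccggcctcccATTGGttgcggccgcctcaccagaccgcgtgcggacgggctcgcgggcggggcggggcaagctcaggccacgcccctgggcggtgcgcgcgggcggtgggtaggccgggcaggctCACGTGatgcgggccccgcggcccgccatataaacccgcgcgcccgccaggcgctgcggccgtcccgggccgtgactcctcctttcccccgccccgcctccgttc
The SREBF2 window lies at chr22:41832855-41833154 on the plus strand.
SREBF2: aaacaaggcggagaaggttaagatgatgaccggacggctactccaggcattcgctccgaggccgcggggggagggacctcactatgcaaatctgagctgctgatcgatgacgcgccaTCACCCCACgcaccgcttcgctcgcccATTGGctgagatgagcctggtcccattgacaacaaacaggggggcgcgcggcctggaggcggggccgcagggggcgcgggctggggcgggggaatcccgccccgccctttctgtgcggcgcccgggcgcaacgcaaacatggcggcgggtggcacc

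The GRAMD1A window held 0 matches to any of the 3 motifs. The MVK window held 5 matches to CCAAT, and the TM7SF2 window 1. INSIG1 had 1 CCAAT and 1 E-box, and SREBF2 had 1 CCAAT and 1 sterol regulatory element match. Windows were given for 36 of the 39 genes. RefSeq and GENCODE starts can differ. The GRAMD1A window ends at 34994776, before the GENCODE start of 34994784, and the OSBPL9, IDI1 and LIPA windows also lie outside the GENCODE gene. CCAAT was present in 21 of these 36 (58.3%), against 35.7% of 27305 promoters of the same length. It was found in 8 of 9 windows of the sterol steps, 4 of 6 of the mevalonate steps, 7 of 14 of uptake and transfer, and 2 of 7 of SREBP regulation. The element-like motif was in 1 of 36 (2.78%), against 1.15% of all promoters, and CACGTG in 4 of 36 (11.1%), against 7.43%. A match is a string of letters in this window and shows no binding. Only these exact letters were searched, so a window without a match may still hold an element that differs from them.

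Over the whole list, 1 of 39 genes (2.56%) was past the threshold, lower in CfzR, a count too small to set against the background of 0.35% of all genes, with 0.246% higher and 0.104% lower. An unadjusted p under 0.05 was found for 5 of the 39 genes (12.8%), against 11.1% of all genes, where 5.32% were higher and 5.81% lower. In 24 genes (61.5%) the CfzR values all lay on one side of the WT values, against a background of 44.7%. Of these, 15 were lower in CfzR (38.5%, background 22.6%) and 9 higher (23.1%, background 22.1%). Log2 fold changes were negative for 23 of 39 genes (59.0%), against 52.9% of all genes. The median was -0.09, beside -0.02 over all genes tested and -0.065 over all genes averaging 5 FPKM or more. The 39 genes were more abundant, at a median of 24.5 FPKM against 7.80 FPKM over all 15201 genes. The background shares are not matched for level. These shares are descriptions and were not tested, and since the submitters name cholesterol and lipid metabolism as altered in these cells, the list is not independent evidence of any direction.

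**Figure D2:**
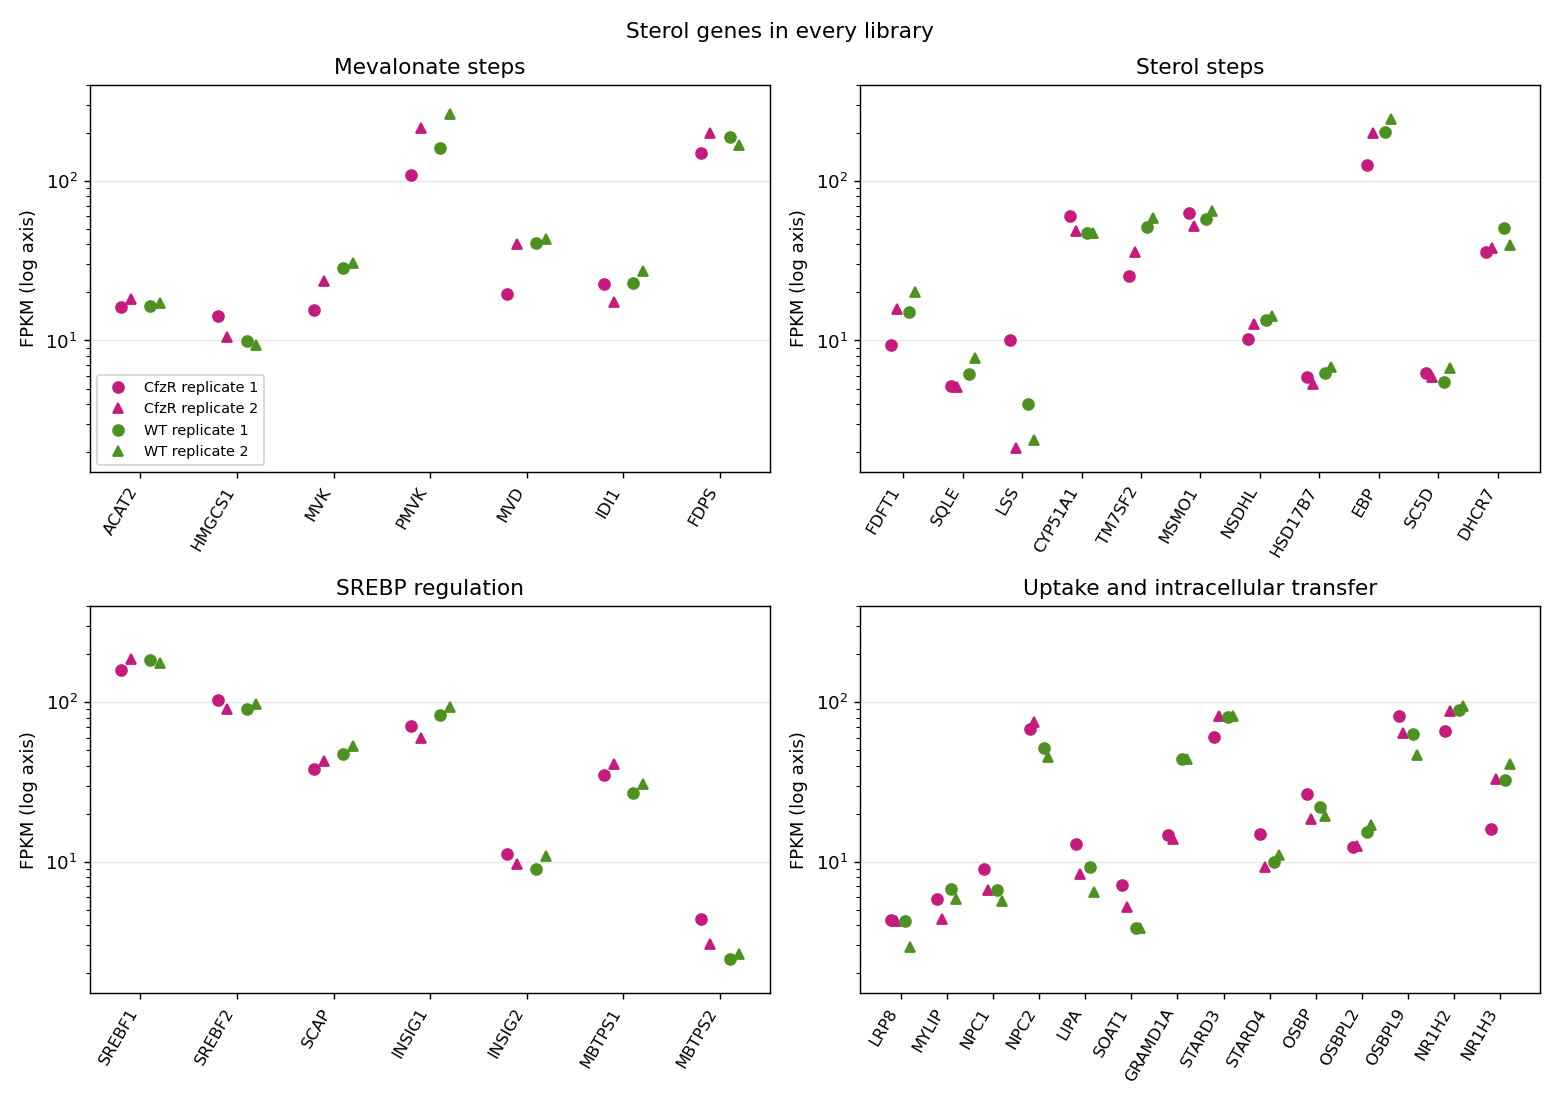
FPKM (log axis) of the 39 sterol genes in each library, by group of genes, with CfzR libraries left of WT libraries for each gene and circles and triangles for replicates 1 and 2. GRAMD1A is at 14.7 and 13.8 FPKM in CfzR against 43.8 and 43.9 in WT, while SREBF1 and SREBF2 overlap between groups.

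Among the mevalonate steps the CfzR values leaned lower in 5 of 7 genes (71.4%, beside 52.9% of all genes tested), and 0 of 7 passed. The median log2 fold change was -0.32, but in CfzR replicate 1 the median difference from the WT mean was -0.24 and in CfzR replicate 2 it was 0.06, so the replicates did not share a direction. ACAT2, a cytosolic thiolase that starts the pathway, stood at 16.2 and 18.3 FPKM in CfzR and 16.5 and 17.1 FPKM in WT, with overlapping groups. HMGCS1, the synthase that makes HMG-CoA, was at 14.3 and 10.5 FPKM in CfzR and 9.96 and 9.38 FPKM in WT. It was the single gene of these 7 with both CfzR libraries above both WT libraries, with a log2 fold change of 0.31 (SE 0.22, adjusted p = 0.601). That value was 0.10 without CfzR replicate 1 and 0.16 in the length and GC corrected fit.

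MVK, mevalonate kinase, stood at 15.4 and 23.8 FPKM in CfzR and 28.5 and 30.5 FPKM in WT. Both CfzR libraries were below both WT libraries, with replicate 1 the lower. Its log2 fold change was -0.59 (95% interval -1.17 to -0.02, unadjusted p = 0.0443, limma adjusted p = 0.431), and -0.30 without CfzR replicate 1. MVK overlaps MMAB, a vitamin B12 enzyme gene on the opposite strand, by 620 bases. MMAB was at 6.77 and 11.6 FPKM in CfzR and 14.9 and 15.2 FPKM in WT (adjusted p = 0.401), in the same order of libraries as MVK within CfzR and within WT.

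PMVK, which adds the next phosphate, varied more within groups than between them, at 109.0 and 215.6 FPKM in CfzR and 161.2 and 263.8 FPKM in WT. The PMVK log2 fold change of -0.43 was 0.064 without CfzR replicate 1 and -0.23 in the length and GC corrected fit. MVD, the decarboxylase that yields isopentenyl diphosphate, was at 19.6 and 40.0 FPKM in CfzR and 41.1 and 43.3 FPKM in WT. Its log2 fold change of -0.57 (adjusted p = 0.539) rested on CfzR replicate 1 and was -0.08 without it. IDI1, the isomerase of the isoprenoid units, stood at 22.5 and 17.4 FPKM in CfzR and 22.9 and 27.1 FPKM in WT, with a log2 fold change of -0.32 (adjusted p = 0.587) and -0.50 without CfzR replicate 1. FDPS, farnesyl diphosphate synthase, overlapped between groups at 150.0 and 199.6 FPKM in CfzR and 187.9 and 167.4 FPKM in WT. Pseudogene copies named after IDI1, FDPS, CYP51A1, HSD17B7 and OSBPL9 exist, so reads of these 5 genes may be split with them and their levels are uncertain.

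The sterol steps had the largest share of negative values of the 4 groups of genes. Log2 fold changes were negative in 9 of 11 genes (81.8%), beside 52.9% of all genes tested. Both CfzR libraries lay below both WT libraries in 6 of 11 genes (54.5%, background 22.6%) and above them in 1 (9.09%, background 22.1%). The median was -0.27, with medians of -0.32 in CfzR replicate 1 and -0.22 in CfzR replicate 2 relative to the WT mean. None of the 11 passed in limma, and 1 (9.09%) had an unadjusted p under 0.05, beside 11.1% of all genes.

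That gene was TM7SF2, a sterol reductase that acts next after CYP51A1. It stood at 25.3 and 35.7 FPKM in CfzR and 51.5 and 58.8 FPKM in WT, with all CfzR values below all WT values. The means were 30.5 ± 7.31 FPKM in CfzR and 55.1 ± 5.16 FPKM in WT (SD, n = 2 each), a 1.81-fold lower level in CfzR. Its log2 fold change was -0.85 (SE 0.23, 95% interval -1.40 to -0.31, limma adjusted p = 0.253). The TM7SF2 value was -0.61 without CfzR replicate 1 and -0.71 in the length and GC corrected fit.

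FDFT1 and SQLE commit the pathway to sterols, as squalene synthase and squalene epoxidase. FDFT1 was at 9.32 and 15.7 FPKM in CfzR and 15.1 and 20.1 FPKM in WT, with overlapping groups and a log2 fold change of -0.49 that was -0.14 without CfzR replicate 1. SQLE was at 5.18 and 5.13 FPKM in CfzR and 6.14 and 7.80 FPKM in WT, so the CfzR libraries agreed closely and both were lower. Its log2 fold change was the same with and without CfzR replicate 1, at -0.37 (adjusted p = 0.549). LSS, which closes the ring to lanosterol, was at 10.1 and 2.13 FPKM in CfzR and 4.02 and 2.38 FPKM in WT. It had the widest interval of the list (log2 fold change 0.52, SE 0.55, 95% interval -0.79 to 1.83), its direction turned to -0.40 without CfzR replicate 1, and it overlaps antisense genes.

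CYP51A1, the lanosterol demethylase, was the one sterol step with both CfzR libraries higher, at 60.4 and 48.4 FPKM in CfzR and 47.3 and 47.5 FPKM in WT, but the second differed little from WT. For CYP51A1 the log2 fold change of 0.19 was 0.030 without CfzR replicate 1 and 0.065 in the length and GC corrected fit. MSMO1, the methylsterol oxidase, stood at 62.9 and 52.2 FPKM in CfzR and 57.7 and 64.6 FPKM in WT, with overlapping groups. NSDHL, the dehydrogenase that works beside it, was at 10.1 and 12.6 FPKM in CfzR and 13.5 and 14.2 FPKM in WT. HSD17B7, the ketosterol reductase of the same complex, was at 5.87 and 5.31 FPKM in CfzR and 6.30 and 6.81 FPKM in WT. For NSDHL and HSD17B7 the groups did not overlap, but the gap was small, with log2 fold changes of -0.27 (adjusted p = 0.628) and -0.20 (adjusted p = 0.714). Without CfzR replicate 1 the NSDHL value was -0.12, and in the length and GC corrected fit the HSD17B7 value was -0.31.

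EBP, the sterol isomerase, was the most abundant sterol step, at 125.8 and 200.8 FPKM in CfzR and 202.2 and 245.8 FPKM in WT. CfzR replicate 2 lay just under the lower WT library, and the log2 fold change of -0.49 (adjusted p = 0.555) was -0.15 without CfzR replicate 1. SC5D, a sterol desaturase, had a log2 fold change of -0.01 (95% interval -0.50 to 0.49) at 6.23 and 5.93 FPKM in CfzR and 5.498 and 6.76 FPKM in WT. DHCR7, the last reductase of the pathway, was at 35.8 and 37.8 FPKM in CfzR and 50.9 and 39.7 FPKM in WT. Both CfzR libraries were below both WT libraries, with 1 WT library close to them (log2 fold change -0.28, adjusted p = 0.621).

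**Figure D3:**
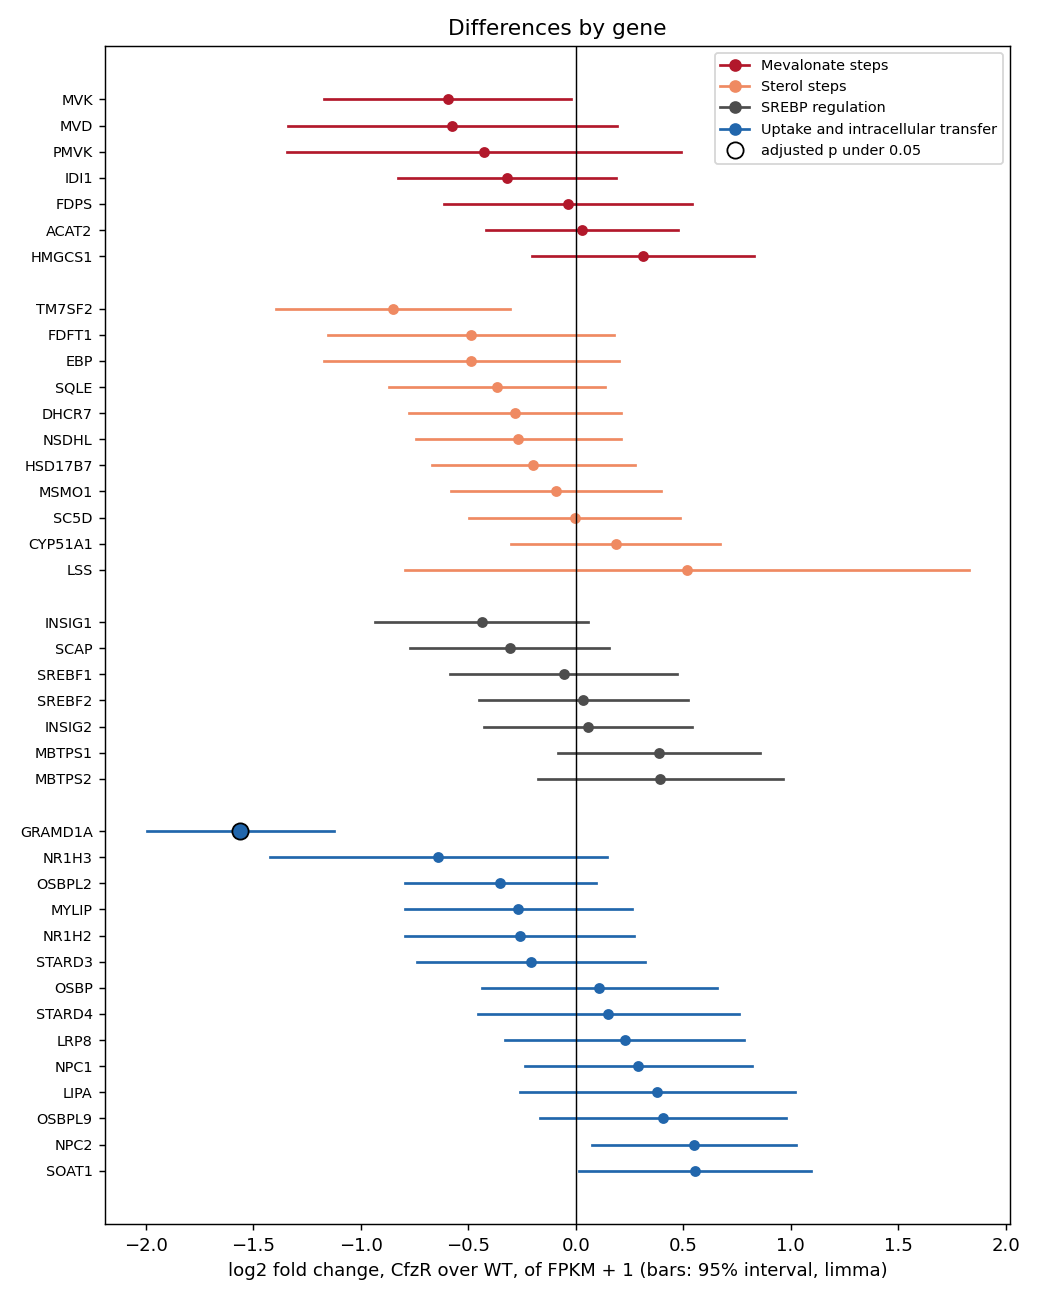
Log2 fold change of FPKM + 1, CfzR over WT, with 95% limma intervals (n = 2 libraries each) for the 39 sterol genes, ordered within each group of genes. The interval of GRAMD1A, the one ringed gene with an adjusted p under 0.05, runs from -1.996 to -1.13, and most others span 0.

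In SREBP regulation 0 of 7 genes were past the threshold and 0 had an unadjusted p under 0.05, and values of both signs were found. SREBF1, whose product mainly drives fatty acid synthesis, stood at 159.6 and 187.5 FPKM in CfzR and 184.4 and 175.4 FPKM in WT. SREBF2, whose product mainly drives cholesterol synthesis, stood at 102.4 and 90.3 FPKM in CfzR and 90.5 and 97.3 FPKM in WT. For both the groups overlapped, and the 95% intervals of the log2 fold change were -0.58 to 0.47 and -0.45 to 0.52. Transcript levels do not show how much of either protein was processed.

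SCAP, the escort of the SREBPs, was at 38.2 and 42.7 FPKM in CfzR and 47.2 and 53.3 FPKM in WT, with groups that did not overlap (log2 fold change -0.31, adjusted p = 0.573). INSIG1, the retention factor that is itself an SREBP target, was at 71.2 and 59.4 FPKM in CfzR and 83.4 and 93.8 FPKM in WT. Both CfzR libraries were lower, with a log2 fold change of -0.44 (SE 0.21, 95% interval -0.93 to 0.06, limma adjusted p = 0.493), -0.57 without CfzR replicate 1 and -0.50 when corrected for the length and GC content of transcripts. INSIG2, its relative, overlapped between groups at 11.1 and 9.60 FPKM in CfzR and 8.99 and 10.9 FPKM in WT.

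The proteases that release the SREBPs leaned the other way. MBTPS1, the site-1 protease, stood at 35.2 and 40.9 FPKM in CfzR and 26.8 and 30.8 FPKM in WT. MBTPS2, the site-2 protease, stood at 4.36 and 3.04 FPKM in CfzR and 2.45 and 2.64 FPKM in WT. For each, both CfzR libraries were above both WT libraries, and the log2 fold change was 0.39 in both genes (adjusted p = 0.509 for MBTPS1 and 0.562 for MBTPS2). Without CfzR replicate 1 the value was 0.49 for MBTPS1 and 0.19 for MBTPS2, and in the length and GC corrected fit it was 0.36 for MBTPS1 and 0.13 for MBTPS2.

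In uptake and intracellular transfer 1 of 14 genes passed, GRAMD1A, and 13 did not. After GRAMD1A the smallest p-values of this group belonged to NPC2 and SOAT1, which act at the lysosome and in ester storage, and both had positive values. NPC2, the lysosomal protein that hands cholesterol to NPC1, stood at 67.8 and 74.9 FPKM in CfzR and 51.9 and 45.0 FPKM in WT, with both CfzR libraries higher. The means were 71.3 ± 4.98 FPKM in CfzR and 48.4 ± 4.89 FPKM in WT (SD, n = 2 each), a ratio of 1.47. Its log2 fold change was 0.55 (SE 0.20, 95% interval 0.08 to 1.02, limma adjusted p = 0.379) and 0.62 without CfzR replicate 1.

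SOAT1, which esterifies cholesterol for storage in droplets, was at 7.17 and 5.17 FPKM in CfzR and 3.83 and 3.85 FPKM in WT. Both CfzR libraries were above the WT pair, with a log2 fold change of 0.55 (95% interval 0.01 to 1.09, limma adjusted p = 0.438), 0.35 without CfzR replicate 1 and 0.36 in the length and GC corrected fit. NPC1, the membrane protein that exports cholesterol from lysosomes, was at 8.96 and 6.68 FPKM in CfzR and 6.62 and 5.70 FPKM in WT (log2 fold change 0.29, adjusted p = 0.634, and 0.10 without CfzR replicate 1). It overlaps RMC1 on the opposite strand over 25624 bases, so its level is uncertain. LIPA, the lysosomal acid lipase that frees cholesterol from its esters, overlapped between groups at 12.8 and 8.35 FPKM in CfzR and 9.23 and 6.47 FPKM in WT, and its log2 fold change of 0.38 was 0.097 without CfzR replicate 1.

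At the surface, LRP8, a lipoprotein receptor of the LDL receptor family, was at 4.33 and 4.27 FPKM in CfzR and 4.23 and 2.92 FPKM in WT. MYLIP, the ligase that marks LDL receptors for degradation and a target of the liver X receptors, was at 5.80 and 4.39 FPKM in CfzR and 6.78 and 5.82 FPKM in WT. In each the groups did not cross, but the nearest CfzR and WT libraries were nearly equal, and the adjusted p was 0.717 for LRP8 and 0.659 for MYLIP. The LRP8 log2 fold change of 0.23 was 0.13 in the length and GC corrected fit, and the MYLIP value of -0.27 was -0.44 without CfzR replicate 1.

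The other carriers gave no shared direction. OSBP, which exchanges cholesterol for a phosphoinositide between the endoplasmic reticulum and the Golgi, was at 26.6 and 18.6 FPKM in CfzR and 21.9 and 19.2 FPKM in WT, and the groups overlapped. The OSBP log2 fold change of 0.11 turned to -0.14 without CfzR replicate 1. OSBPL2, a related carrier, was at 12.4 and 12.6 FPKM in CfzR and 15.4 and 17.0 FPKM in WT, with both CfzR libraries lower (log2 fold change -0.35, adjusted p = 0.526, and -0.34 without CfzR replicate 1). OSBPL9 was at 82.0 and 63.9 FPKM in CfzR and 63.3 and 46.8 FPKM in WT, with CfzR replicate 2 and WT replicate 1 nearly equal (log2 fold change 0.40, adjusted p = 0.554). The OSBPL9 value was 0.23 without CfzR replicate 1 and 0.25 in the length and GC corrected fit. It shares 9237 bases with NRDC on the opposite strand.

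STARD3, which tethers late endosomes to the endoplasmic reticulum, was at 60.4 and 81.3 FPKM in CfzR and 80.7 and 81.3 FPKM in WT, so 3 of the 4 libraries were nearly equal. For STARD3 the log2 fold change of -0.21 was 0.0050 without CfzR replicate 1. STARD4, a soluble sterol carrier, was at 15.0 and 9.20 FPKM in CfzR and 10.003 and 11.0 FPKM in WT. The CfzR libraries lay on both sides of the WT pair, and the log2 fold change of 0.15 turned to -0.17 without CfzR replicate 1.

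The liver X receptors, which sense oxysterols and turn on cholesterol export, leaned lower through CfzR replicate 1. NR1H3 (LXR alpha) was at 16.1 and 32.8 FPKM in CfzR and 32.6 and 40.6 FPKM in WT, with a log2 fold change of -0.64 (SE 0.33, adjusted p = 0.513) and -0.15 without CfzR replicate 1. NR1H2 (LXR beta) was at 65.8 and 87.7 FPKM in CfzR and 88.6 and 93.9 FPKM in WT (log2 fold change -0.26, adjusted p = 0.668, and -0.06 without CfzR replicate 1). NR1H2 shares 7354 bases with NAPSA on the opposite strand, which fell to 27.4 and 46.2 FPKM in CfzR, against 147.2 and 210.7 FPKM in WT (adjusted p = 0.0474). The part of that in the level of NR1H2 was not tested.

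**Figure D4:**
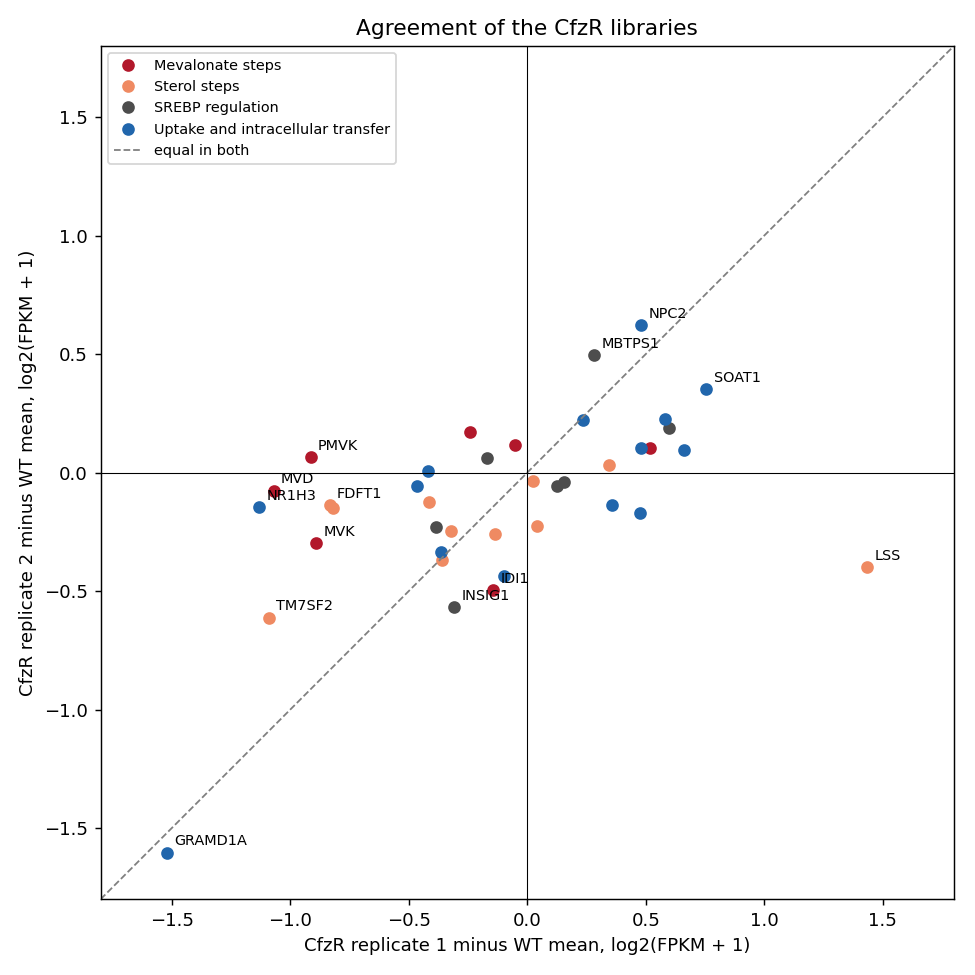
Each CfzR library against the WT mean on the log2(FPKM + 1) scale, replicate 1 across and replicate 2 up, with 1 point per sterol gene and a dashed line of equal values. GRAMD1A lies close to the line at -1.52 and -1.60, TM7SF2 is below 0 and NPC2 above 0 in both libraries, and LSS, MVD, PMVK and NR1H3 lie far from it.

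Levels spanned a wide range on the length-scaled FPKM. PMVK, FDPS, EBP and SREBF1 were the most abundant, with no library of these 4 below 109.0 FPKM. SQLE, HSD17B7, SC5D, MBTPS2, LRP8, MYLIP, NPC1 and SOAT1 stayed below 10 FPKM in all 4 libraries. LSS and SQLE, which act between squalene and lanosterol, were near the low end of the synthesis genes, with means of 6.13 and 5.15 FPKM in CfzR and 3.20 and 6.97 FPKM in WT. The lowest value of any of the 39 genes was 2.13 FPKM, so all 39 passed the filter of a mean of at least 1 FPKM. Sequencing depth is unknown, since FPKM hold no counts.

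Other genes of the pathway were read from 5 related lists. None of their members passed, in either direction. This held for 14 genes of the isoprenoid branch, 12 of sterol-regulated degradation in the endoplasmic reticulum, 8 of efflux, esterification and oxysterols, 12 other lipid transfer proteins and 10 SREBP targets of fatty acid synthesis. The 8 include NR1H3, already described above, and ACAT1, a thiolase that does not esterify cholesterol. The 10 include TMEM97, which is not an enzyme of fatty acid synthesis. Unadjusted p-values under 0.05 numbered 0, 0, 1, 2 and 2 over these lists, beside 11.1% of all genes, and the median log2 fold changes were 0.0050, 0.0058, 0.092, -0.038 and -0.053 in that order.

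In the isoprenoid branch the smallest p-values belonged to NUS1, PGGT1B, RCE1 and DHDDS, with log2 fold changes of 0.38, 0.40, -0.25 and -0.21. Without CfzR replicate 1 these 4 values were 0.12, 0.24, -0.017 and -0.28. NUS1 and DHDDS form the enzyme that makes dolichol, and PGGT1B and RCE1 act on prenylated proteins. In the degradation list they belonged to ERLIN2, UFD1, ERLIN1 and SYVN1, with 0.48, 0.38, -0.27 and 0.18, and 0.31, 0.41, -0.36 and 0.29 without CfzR replicate 1. UFD1 stood at 31.6 and 32.8 FPKM in CfzR and 31.1 and 19.2 FPKM in WT, so its value rested on WT replicate 2. ERLIN1 and ERLIN2 are partner proteins that bind cholesterol, and their values pointed in opposite directions.

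Among efflux genes, APOE, the lipoprotein that carries exported cholesterol, stood at 0.729 and 1.98 FPKM in CfzR and 3.72 and 2.92 FPKM in WT (log2 fold change -0.92, unadjusted p = 0.0230, limma adjusted p = 0.358), and its value was -0.53 without CfzR replicate 1. The export pumps ABCG1 and ABCA1 leaned higher, at log2 fold changes of 0.40 for ABCG1 (adjusted p = 0.509) and 0.45 for ABCA1 (adjusted p = 0.543), with both CfzR libraries above both WT libraries in each. Without CfzR replicate 1 they were 0.37 for ABCG1 and 0.24 for ABCA1. NR1H3, given above, was the other of the leading 4.

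Among other lipid transfer proteins, STARD7, a phosphatidylcholine carrier to mitochondria, was at 27.6 and 26.9 FPKM in CfzR and 40.9 and 44.6 FPKM in WT (log2 fold change -0.63, limma adjusted p = 0.290). STARD3NL, a tether related to STARD3, was at 23.9 and 19.3 FPKM in CfzR and 13.9 and 13.2 FPKM in WT (log2 fold change 0.63, adjusted p = 0.321). For STARD7 the replicates lay close together compared with the gap between groups. For STARD3NL the CfzR libraries differed by nearly as much as that gap, and the log2 fold change was 0.48 without CfzR replicate 1. OSBPL11 and OSBPL8 followed, with log2 fold changes of 0.31 and 0.30, which were 0.11 and -0.0080 without CfzR replicate 1.

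Among fatty acid targets of SREBP, ELOVL6, an elongase, was at 24.3 and 21.9 FPKM in CfzR and 11.1 and 12.3 FPKM in WT, a ratio of 1.97 (log2 fold change 0.92, limma adjusted p = 0.138). SCD, the desaturase, pointed the other way, at 84.4 and 57.1 FPKM in CfzR and 111.5 and 110.3 FPKM in WT (limma adjusted p = 0.389). The SCD log2 fold change of -0.67 was -0.95 without CfzR replicate 1 and -0.76 in the length and GC corrected fit. ACSS2 and ACSL3, which activate acetate and long fatty acids, had log2 fold changes of -0.36 and 0.22, and -0.38 and 0.026 without CfzR replicate 1. Known targets of the same factors therefore had values of both signs.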

How the data were processed

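The authors deposited 1 table, with 15201 Ensembl gene IDs and 1 column for each of 4 libraries. The tools were STAR and Cufflinks, per the submitters' processing notes. The deposited file states no unit, and FPKM was inferred from Cufflinks, the header and the decimal values. The lowest mean of any row over the 4 libraries was 0.50 FPKM. The alternative without a filter therefore still starts from that level, and a gene without a row may have lain below it. The sources used here give no versions, genome build, annotation or use of strand. Columns named cfz were taken as CfzR, and columns named con as WT, the remaining group. Positions came from GENCODE release 29 (GRCh38).

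The 13411 genes averaging 1 FPKM or more over the 4 libraries entered limma 3.58.1 (R 4.3.3, mean-variance trend, two-sided, Benjamini-Hochberg over all genes tested, threshold 0.05) as log2(FPKM + 1), which understates changes of low genes. Fold ratios are of mean FPKM. The procedure was tested on simulated data. The labels do not say that replicates are separate cultures, so p-values measure only how far these libraries differ, and that may be technical. Depth is unknown: genes under 1 FPKM shared no step of 1 read (0.525% and 0.572% in the fullest window of ratios for the CfzR and WT pairs).

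Alternatives were a pseudocount of 0.1, no filter, a filter at 5 FPKM, trimmed means of M-values (TMM), quantile normalization, the replicate number as a block, a spline correction (4 degrees of freedom) for length and GC content, and leaving out each library. All 39 genes were named, and the 4 with the smallest p from each related list. DMKN, MMAB and NAPSA were chosen after their values were seen. The genes, lists and promoter motifs were chosen with earlier results of these data known.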

Additional observations from a re-analysis of the deposited data

How the results depend on the processing

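GRAMD1A kept its sign under all 11 alternatives, with log2 fold changes of -1.62 to -1.45. Its adjusted p stayed under 0.05 except when a CfzR library was left out, where the lone library is assumed to vary like the WT pair (0.159 and 0.0822). Of the 39 genes, the number past the threshold was 0 without either CfzR library, 0 to 1 over all libraries left out, and 1 otherwise, except 3 with the replicate block, which added TM7SF2 (adjusted p = 0.00181) and NR1H3 (0.0320). That block leaves 1 residual degree of freedom, and same-numbered libraries are not stated to be paired (correlation of their deviations 0.252). Of all genes 47 passed, against 27 at a filter of 5 FPKM, 1242 with the replicate block (487 higher and 755 lower), and 16 to 260 with a library left out (16 without CfzR replicate 1, 17 without CfzR replicate 2, 260 without WT replicate 1 and 148 without WT replicate 2). The median of the mevalonate steps ran from -0.44 to 0.064 with a library left out and that of uptake and transfer from -0.025 to 0.30, being -0.043 after the length and GC correction. The SREBP regulation median was 0.19 under quantile normalization. The sterol steps ran from -0.32 to -0.21 over all alternatives.

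Signs changed for 12 of the 39 genes, all far from the threshold. Under quantile normalization FDPS was at 0.19, MSMO1 at 0.067 and SREBF1 at 0.19. After the length and GC correction FDPS was at 0.071, SREBF1 at 0.014, INSIG2 at -0.19 and STARD4 at -0.16. SC5D was at 0.0066 with TMM. With a library left out, ranges were -0.051 to 0.11 for ACAT2, -0.91 to 0.064 for PMVK, -0.24 to 0.17 for FDPS, -0.40 to 1.43 for LSS, -0.22 to 0.041 for MSMO1, -0.13 to 0.12 for SC5D, -0.17 to 0.060 for SREBF1, -0.055 to 0.13 for SREBF2, -0.066 to 0.18 for INSIG2, -0.42 to 0.0050 for STARD3, -0.17 to 0.48 for STARD4 and -0.14 to 0.36 for OSBP. The cause was not tested. Depth is not known, so no limit from counting can be given.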
